A study of Rattus norvegicus with 6 samples.

Results

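The genes described here are 5 components of fibrous connective tissue matrix, of 32883 genes in the count table of a rat bone experiment: Col3a1 (ENSRNOG00000003357), Col5a2 (ENSRNOG00000003736), Fn1 (ENSRNOG00000014288), Dcn (ENSRNOG00000004554) and Lum (ENSRNOG00000004610). They were picked by identifier as genes typical of periosteum and stroma, and all 5 were measured and passed the filter on low counts. RNA was sequenced from bone of 3 control rats, labelled as untreated, and 3 exercised rats, all wild type (WT in the labels), in a study of treadmill running at moderate intensity in adult animals. The sources used here do not give sex, exact age, bone site or length of training. The labels name the osteocyte as the cell type, whereas the source is given as bone. The count table carries identifiers without gene names, and 0 of them could be matched to the RefSeq gene table for rat, so the symbols are those assigned when the genes were picked. For the same reason neither osteocyte markers nor markers of periosteum, marrow or muscle could be read out.

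Type III collagen, made of chains from Col3a1, forms thin fibrils in soft and vascularized connective tissue and is abundant in periosteum, the fibrous sheath of bone, and in healing tissue. Type V collagen, of which Col5a2 encodes a chain, is built into fibrils of other collagens and limits their diameter. Fibronectin, the product of Fn1, is a large glycoprotein on which cells assemble collagen and to which they attach through integrins. Decorin (Dcn) and lumican (Lum) are small leucine-rich proteoglycans that sit on the surface of collagen fibrils and govern their spacing and growth. These proteins are made mainly by fibroblast-like and other mesenchymal cells, while the main protein of the mineralized matrix itself is type I collagen.

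In the gene order of RefSeq assembly GRCr8, Col3a1 and Col5a2 are direct neighbours on chromosome 9 with 0 protein-coding genes between them, and Dcn and Lum are direct neighbours on chromosome 7, likewise with 0 between them. Neither pair of gene spans overlaps in that annotation. Fn1 is also on chromosome 9, with 144 protein-coding genes between it and Col5a2. Promoter sequences from RefSeq (GRCr8) were found for Col5a2 and Lum and are shown for these members, whose levels correlated across libraries (r = 0.843, given with its test below). Each runs 5′ to 3′ over 300 bases around the annotated start site, Col5a2 at chr9:55090102-55090401 on the minus strand and Lum at chr7:34245456-34245755 on the plus strand, with motif matches in capitals.
Col5a2: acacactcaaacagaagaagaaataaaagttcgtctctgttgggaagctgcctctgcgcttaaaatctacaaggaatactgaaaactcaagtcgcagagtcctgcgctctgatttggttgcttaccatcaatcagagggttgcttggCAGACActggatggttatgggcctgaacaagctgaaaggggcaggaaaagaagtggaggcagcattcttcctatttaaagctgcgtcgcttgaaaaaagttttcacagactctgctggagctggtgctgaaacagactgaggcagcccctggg
Lum: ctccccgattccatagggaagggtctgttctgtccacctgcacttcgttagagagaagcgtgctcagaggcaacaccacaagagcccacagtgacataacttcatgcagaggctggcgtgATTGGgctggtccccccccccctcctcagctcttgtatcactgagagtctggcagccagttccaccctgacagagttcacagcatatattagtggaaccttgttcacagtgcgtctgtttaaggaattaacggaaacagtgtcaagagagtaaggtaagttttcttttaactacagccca

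Matches were searched on both strands for 5 motifs of general or signal-responsive transcription factors: the TATA box with the letters TATAAA, the CCAAT box, the TEAD motif spelled GGAATG, the AP-1 motif spelled TGANTCA and the SMAD motif spelled CAGACA. No motif overlapped another in these windows. The Col5a2 window held 1 match, CAGACA, a sequence found in 21.1% of 33469 rat promoters of the same length. The Lum window held 1 match, CCAAT on the reverse strand (ATTGG as printed), which 37.5% of all promoters contain. The TATA box, TEAD and AP-1 motifs, present in 14.2%, 14.2% and 7.33% of all promoters, were not among the letters of either window.

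The libraries held 14056743 to 18126584 counts each, and the levels below are counts relative to library size (CPM) scaled with TMM factors, which adjust for differences in RNA composition. Counts depend on transcript length, which was not available for these genes, so levels were compared between libraries and not between genes. Control replicate 3 and exercised replicate 3 stood at opposite ends of the first principal component of all tested genes, with scores of -126.1 and 116.8. Control replicate 2 scored 52.7. The 10 most abundant genes took 27.5% of the counts in control replicate 3 and 16.6 to 25.4% in the others. For the members, counts ran from 343 (exact 95% Poisson interval 308 to 381) to 73792 (73261 to 74326), so counting error was small beside the differences between animals. These intervals cover counting error only.

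The 2 fibrillar collagen genes were highest in the same control animal and lowest in the same exercised animal. Col3a1 stood at 740.4, 2887 and 317 CPM in control replicates 1, 2 and 3, and at 806, 572 and 111 CPM in exercised replicates 1, 2 and 3. Control replicate 2 was the highest library and exercised replicate 3 the lowest, 25.9-fold apart, and the 4 others lay between 317 and 806 CPM with controls and exercised animals interleaved. Col5a2 stood at 94.6, 236 and 45.7 CPM in controls and at 91.6, 66.0 and 19.5 CPM in exercised bone. It had the same highest and lowest libraries as Col3a1, 12.1-fold apart, and the values of control replicate 1 and exercised replicate 1 had overlapping counting intervals (89.6 to 99.7 and 86.8 to 96.6 CPM). The groups overlapped for both genes. In these bulk libraries, fewer cells of a type and less RNA per cell cannot be told apart.

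Fn1 followed another order. It stood at 387, 4348 and 167 CPM in controls and at 628, 1230 and 510.5 CPM in exercised bone. Control replicate 2 alone reached 0.525% of all counts of its library with this 1 gene, while the other 2 controls were the 2 lowest of the 6 libraries. All 3 exercised values therefore lay within the span of the controls, which was 26.0-fold, against 2.41-fold among exercised animals.

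The 2 proteoglycan genes, although neighbours in the genome, each departed in a different library. Dcn stood at 442, 467 and 329 CPM in controls and at 389, 385 and 47.2 CPM in exercised bone. It was nearly level in 5 libraries, which spanned 1.42-fold, and only exercised replicate 3 was far below them. Lum stood at 97.6, 353 and 55.9 CPM in controls and at 75.2, 88.8 and 59.6 CPM in exercised bone. For Lum only control replicate 2 stood apart, well above the others, while exercised replicate 3 and control replicate 3 had overlapping counting intervals (56.0 to 63.3 and 52.1 to 59.9 CPM). The spread within the groups was opposite for the 2 genes: Dcn varied 1.42-fold among controls and 8.24-fold among exercised animals, and Lum 6.33-fold among controls and 1.49-fold among exercised animals.

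**Figure D1:**
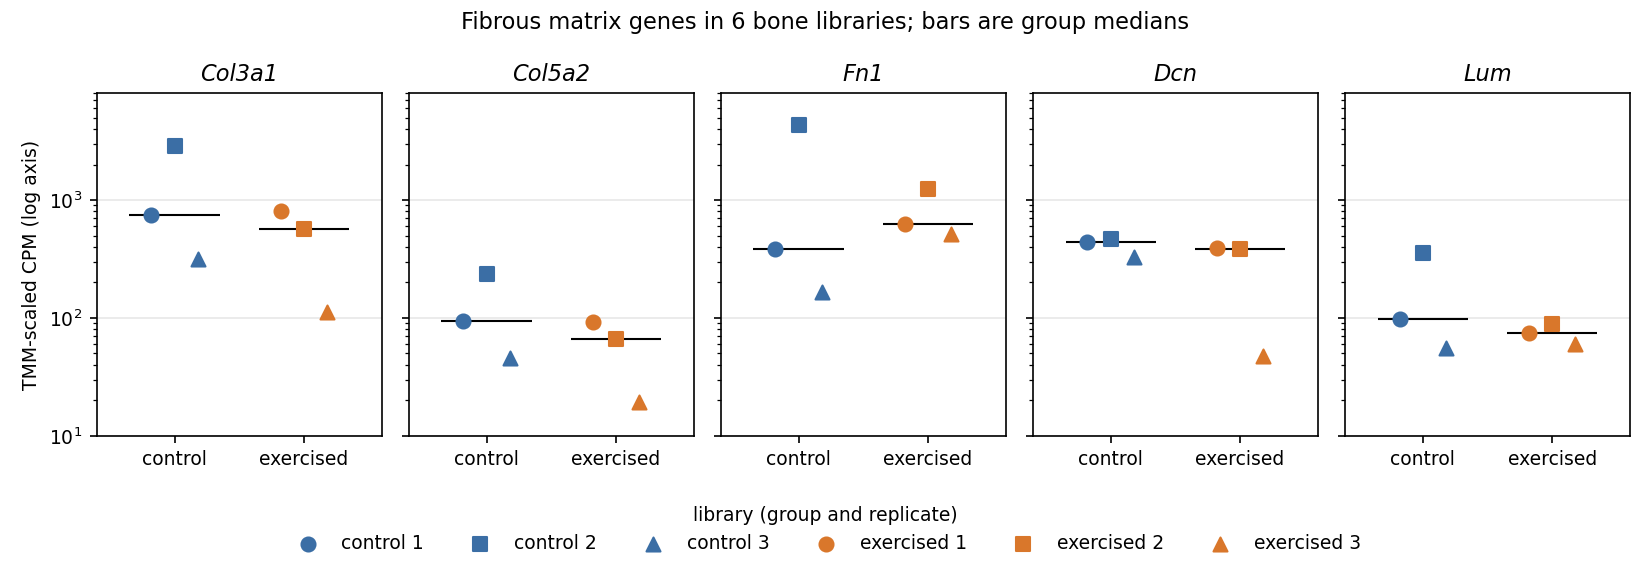
TMM-scaled CPM on a log axis for each gene, with 1 point per library, colour for the group, marker shape for the replicate number and a black bar at the group median. Control replicate 2 (blue square) is the top point of all 5 genes, and exercised replicate 3 (orange triangle) is the lowest point of Col3a1, Col5a2 and Dcn.

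Control replicate 2 held the highest value of all 5 genes and exercised replicate 3 the lowest of Col3a1, Col5a2 and Dcn, while Fn1 and Lum were lowest in control replicate 3. In control replicate 2, Fn1 was 8.52 times the median of the other 5 libraries, Col3a1 5.05 times, Lum 4.70 times and Col5a2 3.57 times, whereas Dcn was 1.21 times. Of the 14495 tested genes, 0.483% were further above the other libraries there than Fn1, 1.25% further than Col3a1, 1.41% further than Lum, 2.52% further than Col5a2 and 31.9% further than Dcn. In exercised replicate 3, Dcn was 0.121 times the median of the other 5, Col3a1 0.150 times and Col5a2 0.213 times, whereas Lum was 0.670 times and Fn1 0.813 times. Of all tested genes, 1.18% were further below the others in that library than Dcn, 1.95% further than Col3a1 and 3.87% further than Col5a2, against 31.9% for Lum and 40.2% for Fn1.

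On the first principal component, which accounted for 65.3% of the variation between libraries, these 2 libraries were not ordered as for the collagen genes. Both had positive scores (52.7 and 116.8) and low shares of counts in the 10 most abundant genes (17.4% and 16.6%), yet 1 was the highest and the other the lowest for the collagen genes. Among the libraries other than exercised replicate 3, the summed CPM of the 5 genes rose with the score. By rising score these were control replicates 3 and 1, exercised replicates 1 and 2, and control replicate 2. Their sums were 915, 1761, 1989, 2342 and 8292 CPM. Fn1 rose in the same order, whereas Col3a1, Col5a2, Dcn and Lum did not. Exercised replicate 3 had the highest score and the lowest sum (748 CPM). The 5 genes together took 1.00% of the counts of control replicate 2 and 0.0873% of those of exercised replicate 3. In the 4 other libraries they took 0.0727% (control replicate 3) to 0.234% (exercised replicate 2). Whether the dissected tissue or RNA quality differed between the animals was not tested.

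**Figure D2:**
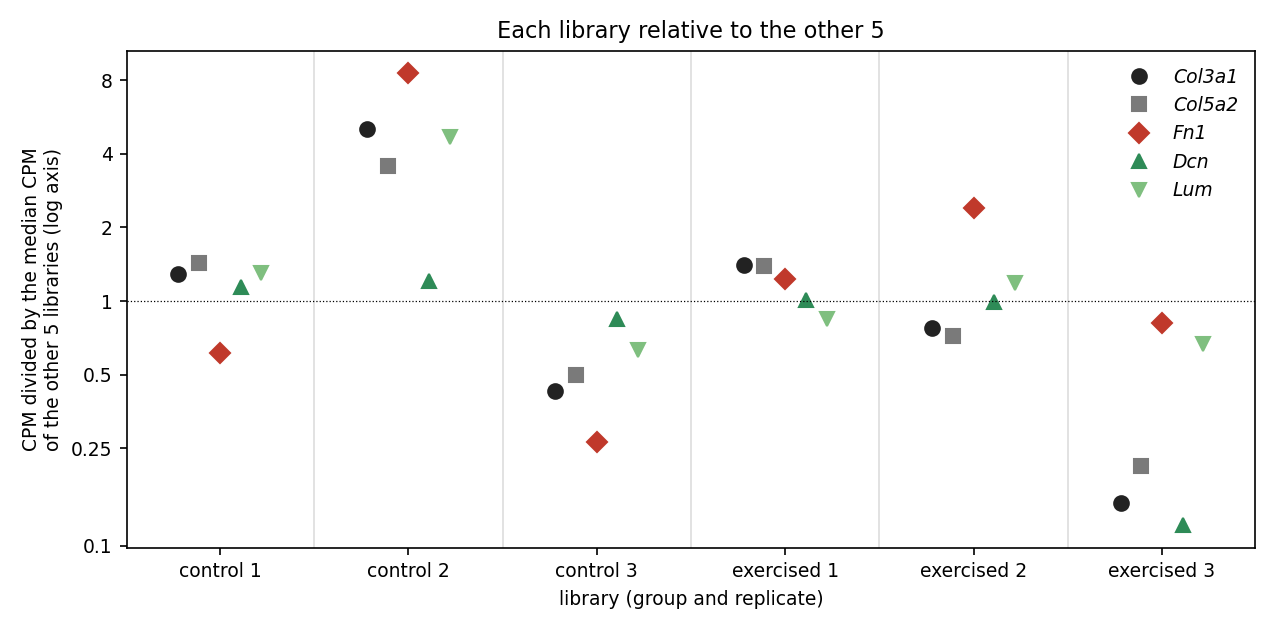
CPM of each gene in each library divided by the median of the other 5 libraries, on a log axis with a dotted line at 1. In control replicate 2 all genes but Dcn lie between 3.57 and 8.52, and in exercised replicate 3 Dcn, Col3a1 and Col5a2 lie between 0.121 and 0.213 while Lum and Fn1 stay at 0.670 and 0.813.

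Over all 6 libraries, the animals differed more in these genes than in most others, but this rested largely on control replicate 2 and exercised replicate 3. The fold between highest and lowest library was 6.33 for Lum, 9.91 for Dcn, 12.1 for Col5a2, 25.9 for Col3a1 and 26.0 for Fn1, against a median of 2.68 over all tested genes. A span of more than 4-fold was found in 5 of 5 members and in 33.6% of all tested genes. The count was 4 of 5 without control replicate 2 (Lum then spanned 1.74-fold), 4 of 5 without exercised replicate 3 (Dcn then spanned 1.42-fold) and 1 of 5 (Fn1) without both, against 32.9%, 21.7% and 15% of all genes tested in those fits. With library size alone in place of TMM, the span was 39.6-fold for Fn1 and 9.63-fold for Lum. The standard deviation of log2 CPM within groups was 0.985 (Lum) to 1.79 (Fn1), with a median of 1.25 over the members and 0.515 over all tested genes. Fn1 varied more within groups than 95.8% of tested genes and Lum, the least variable member, more than 80.8%.

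The 5 genes varied together to very different degrees across the 6 libraries. All 10 pairs had a positive Pearson correlation of log2 CPM, from 0.233 (Fn1 and Dcn) to 0.998 (Col3a1 and Col5a2), with a median of 0.822. In two-sided exact permutation tests, 3 of the 10 pairs had a p adjusted over the pairs (Benjamini-Hochberg) under 0.05 by Pearson's r, and 1 by Spearman's rho. The points share their library and scaling, and control replicate 2 or exercised replicate 3 was an extreme in every gene, so values without the 2 libraries farthest from the median of the first gene (4 libraries) are given beside each pair.

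Col3a1 and Col5a2 were the closest pair. Pearson's r was 0.998 (exact permutation p = 0.00278, adjusted 0.0139) and Spearman's rho 0.943 (exact permutation p = 0.0167, adjusted 0.0557), and r was 0.981 without control replicate 2 and exercised replicate 3. Among 14494 other tested genes, Col5a2 ranked 1 by its correlation with Col3a1, and Col3a1 ranked 1 by its correlation with Col5a2. The ratio of their counts, which does not depend on the scaling between libraries, ranged only 2.14-fold. It was lowest in exercised replicate 3 (5.71) and highest in control replicate 2 (12.2), with 7.83, 6.94, 8.80 and 8.66 in control replicates 1 and 3 and exercised replicates 1 and 2. Col3a1 had the wider swing, with a standard deviation of log2 CPM 1.30 times that of Col5a2.

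Dcn followed the order of the collagen genes closely. Its rho with Col5a2 was 1.00 (exact permutation p = 0.00278, adjusted 0.0278) and its r 0.829 (exact permutation p = 0.00139, adjusted 0.0139), with an r of 0.903 without the 2 extreme libraries. This full agreement in rank includes differences within counting error. The counting intervals of Dcn overlapped in exercised replicates 1 and 2 (379 to 399 and 375 to 396 CPM). Those of Col5a2 overlapped in control replicate 1 and exercised replicate 1. Between Dcn and Col3a1, r was 0.816 (exact permutation p = 0.00417, adjusted 0.0139) and rho 0.943 (exact permutation p = 0.0167, adjusted 0.0557), with an r of 0.862 without the 2 extreme libraries. Even so, Dcn ranked only 477 among 14494 genes by its r with Col5a2. The counts of Col3a1 per count of Dcn ranged 6.42-fold, from 0.963 in control replicate 3 to 6.18 in control replicate 2.

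Lum correlated with Fn1 and with both collagen genes, but no such pair passed the adjusted threshold. Its r was 0.873 with Fn1 (exact permutation p = 0.0292, adjusted 0.0584), 0.858 with Col3a1 (exact permutation p = 0.025, adjusted 0.0584) and 0.843 with Col5a2 (exact permutation p = 0.0403, adjusted 0.0672). Their rho values were 0.657, 0.771 and 0.886 (exact permutation p = 0.175, 0.103 and 0.0333, adjusted 0.25, 0.172 and 0.0666). The relation of Lum with Fn1 leaned mostly on control replicate 2, since r was 0.564 without it and 0.877 without control replicate 3 alone. Without control replicates 2 and 3 together, r was 0.108. On deviations from the group means, with all 6 libraries included, r of Lum was 0.993 with Fn1, 0.825 with Col3a1 and 0.804 with Col5a2. The relations of Lum with Col3a1 and Col5a2 stood at 0.783 and 0.772 without control replicate 2 and exercised replicate 3.

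The neighbouring proteoglycan genes Dcn and Lum had an r of 0.448 (exact permutation p = 0.208, adjusted 0.231) and a rho of 0.886 (exact permutation p = 0.0333, adjusted 0.0666). The r was 0.937 over the 4 libraries other than control replicate 2 and exercised replicate 3. Dcn counts per Lum count were 4.52, 5.90, 5.17 and 4.34 in those 4 libraries (control replicates 1 and 3, exercised replicates 1 and 2). The ratio was 1.32 in control replicate 2, where Lum was high, and 0.792 in exercised replicate 3, where Dcn was low.

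Over all 6 libraries, Fn1 was the member least tied to the collagen genes and Dcn. Its r was 0.688 with Col3a1, 0.648 with Col5a2 and 0.233 with Dcn (exact permutation p = 0.118, 0.151 and 0.535, adjusted 0.169, 0.189 and 0.535), and the rho values were 0.600, 0.486 and 0.486 (exact permutation p = 0.242, 0.356 and 0.356, adjusted 0.302, 0.356 and 0.356). Without control replicate 2 and exercised replicate 3, r was 0.621 with Col3a1 and 0.471 with Col5a2. For Fn1 and Dcn, the 2 libraries farthest from the median of Fn1 were control replicates 2 and 3. Without these r was 0.225, with exercised replicate 3, by far the lowest library for Dcn, still included. The values depended on single libraries. Without exercised replicate 3 alone they were 0.885, 0.841 and 0.726, and without control replicate 2 alone 0.234, 0.17 and 0.00324. On deviations from the group means, r of Fn1 was 0.793 with Col3a1, 0.767 with Col5a2 and 0.294 with Dcn. Dcn itself had 0.769 with Col3a1 and 0.78 with Col5a2 on that measure. The ratio of Fn1 to Dcn counts had the widest range of the 10 pairs, 21.3-fold, from 0.507 in control replicate 3 to 10.8 in exercised replicate 3. Per Col3a1 count, controls held 0.522, 1.51 and 0.527 Fn1 counts, and exercised replicates 1, 2 and 3 held 0.779, 2.15 and 4.59, so that the groups overlapped.

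**Figure D3:**
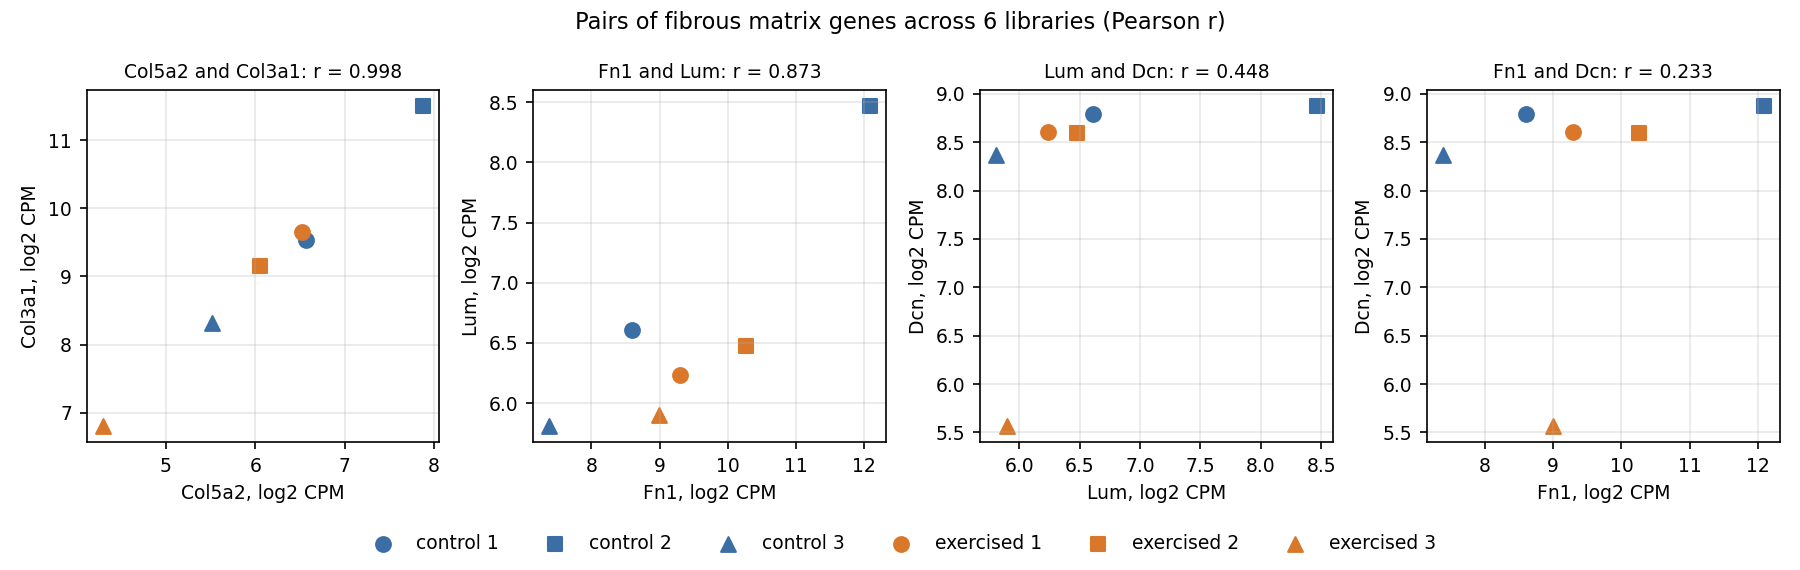
Log2 CPM of 4 pairs of genes across the 6 libraries, with colour for the group and marker shape for the replicate number. Col3a1 and Col5a2 lie close to a line (r = 0.998), Fn1 and Lum have an r of 0.873, or 0.564 without control replicate 2 at the upper right, and in both Dcn panels (r = 0.448 and 0.233) exercised replicate 3 lies far below 5 nearly level points.

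Other genes followed the mean of the members more closely than some members did. The mean of the 5 standardized log2 CPM profiles correlated over the 6 libraries at 0.988 with Col3a1, 0.979 with Col5a2, 0.911 with Lum, 0.780 with Fn1 and 0.754 with Dcn, each of which is part of that mean. The 2 most similar genes outside the list were ENSRNOG00000011750 (r = 0.996, mean level 1.39 CPM) and ENSRNOG00000025001 (r = 0.989, mean level 34.2 CPM), for which no symbol was available. In all, 164 of 14490 genes outside the list (1.13%) had an r above 0.9, and 686 (4.73%) had an r above that of Dcn, the lowest member.

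The groups were compared to ask whether treadmill running altered these genes, and none of the 5 passed the test. With edgeR (quasi-likelihood, p adjusted by Benjamini-Hochberg over 14495 genes), 0 of 5 members had an adjusted p under 0.05, where 0% of all tested genes did. At an unadjusted p under 0.05 there were 0 of 5 members, against 1.7% of all tested genes. DESeq2 and limma voom likewise gave 0 of 5 members at an adjusted p under 0.05. Over all genes, DESeq2 called 1 of 20681 and limma voom 0 of 14495. The libraries of the groups were separate for 0 of 5 members, against 7.37% of all tested genes. The median log2 fold difference over the members was -1.09, and over all tested genes 0.01.

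The collagen genes had lower means in exercised bone, within the spread of the animals. Col3a1 averaged 1315 ± 1378 CPM in controls against 496 ± 353 CPM in exercised rats (SD, n = 3 each), and its log2 fold difference was -1.41 (SE 1.02, edgeR adjusted p = 0.889). Its approximate 95% interval reached from -3.86 to 1.05, that is from 0.0689-fold to 2.07-fold. Col5a2 averaged 125 ± 98.7 and 59.0 ± 36.6 CPM, with a log2 fold difference at -1.09 (SE 0.76, edgeR adjusted p = 0.889, interval -2.90 to 0.73). The intervals included no difference, decreases of several fold, and increases of up to 2.07-fold for Col3a1 and 1.66-fold for Col5a2. Without control replicate 2 and exercised replicate 3, a choice made after seeing the data, the log2 fold differences were 0.38 and 0.16.

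For Fn1 even the direction depended on the method. The means were 1634 ± 2353 CPM in controls against 789 ± 386 CPM in exercised rats, and edgeR put the log2 fold difference at -1.05 (SE 1.20, adjusted p = 0.889, interval -3.93 to 1.83). The medians ran the other way, 387 CPM in controls against 628 CPM in exercised rats, and the mean log2 CPM was 9.36 in controls and 9.52 in exercised bone. Limma voom gave 0.24, and edgeR gave 1.51 without control replicate 2 (adjusted p = 0.537). The share of the variance of log2 CPM between the groups was 0.00309, the lowest of the 5 members.

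The proteoglycan genes also had lower means in exercised bone, each owing much of it to 1 library. Dcn averaged 413 ± 73.4 CPM in controls against 274 ± 196 CPM in exercised rats, with a log2 fold difference at -0.59 (SE 0.74, edgeR adjusted p = 0.893, interval -2.36 to 1.18), and -0.09 without exercised replicate 3. Lum averaged 169 ± 161 and 74.5 ± 14.7 CPM, with a log2 fold difference at -1.18 (SE 0.68, edgeR adjusted p = 0.889, interval -2.82 to 0.46), and -0.04 without control replicate 2. In two-sided exact permutation tests on log2 CPM, p was 0.5 for Col3a1, 0.4 for Col5a2, 0.9 for Fn1, 0.4 for Dcn and 0.5 for Lum, and 3 libraries against 3 cannot give a p below 0.1.

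**Figure D4:**
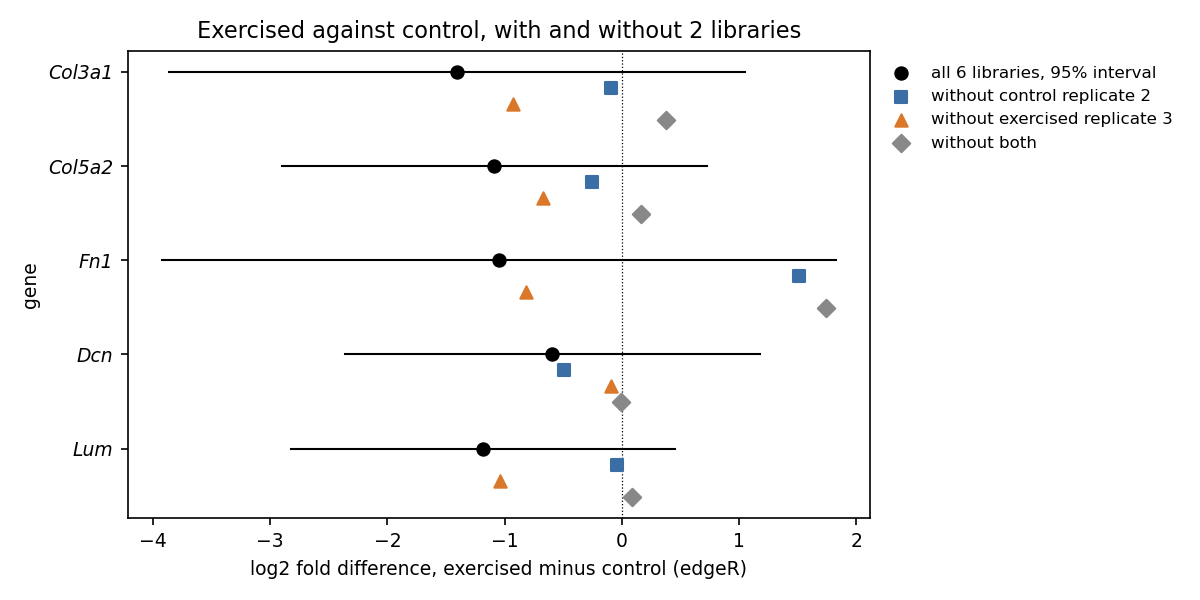
Log2 fold difference of each gene, exercised minus control, from edgeR with all 6 libraries (black circles with approximate 95% intervals), without control replicate 2 (squares), without exercised replicate 3 (triangles) and without both (diamonds). All 5 intervals span 0, the estimates of Col3a1, Col5a2 and Lum move close to 0 without control replicate 2, and that of Fn1 moves from -1.05 to 1.51.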

How the data were processed

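The deposited table holds 1 value per Ensembl gene and library. Its headers name FPKM, but all values are whole and column totals differ between libraries, so they were treated as deposited raw counts; read as FPKM, such totals would need targets averaging at most 71.1 nt. The submitters' processing notes list edgeR, StringTie, HISAT2 2.1.0, fastp 0.19.5 and CASAVA 1.8; the sources used here do not give the rat build, annotation or strand setting. Columns were assigned by the library names in the labels.

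Exercised and control libraries were compared with edgeR 4.0.16 (R 4.3.3; quasi-likelihood test, TMM, filterByExpr with minimum count 10 and total 15, threshold 0.05), fitted on all 14495 genes that passed; 95% intervals came from the fit. DESeq2 1.42.0 (without that filter) and limma 3.58.1 (voom) were alternatives, all tested on simulated data. The simulated libraries varied less than these, so the simulation does not show how the methods perform at the spread found here. Log2 CPM used a prior count of 2. Named were the 5 members and the 2 most similar other genes by Pearson's r; 17 lists of matrix and cell type genes could not be read without symbols. Members and lists were chosen with earlier results of these data known. Nothing in the labels says replicate numbers mark anything shared, so p-values reflect only how these 6 libraries vary.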

Additional observations from a re-analysis of the deposited data

How the results depend on the processing

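No member passed an adjusted p of 0.05 in any of the 15 alternatives (adjusted p 0.537 to 1), 1 of which was chosen after seeing the data: the fit without both control replicate 2 and exercised replicate 3. Over all genes, DESeq2, for which low counts were not filtered out, called 1 gene and the other 14 alternatives 0. Leaving out 1 library in turn gave 0 genes each time and log2 fold differences of -1.94 to -0.09 for Col3a1, -1.55 to -0.25 for Col5a2, -1.58 to 1.51 for Fn1, -0.97 to -0.09 for Dcn and -1.60 to -0.04 for Lum. Fn1 changed direction with limma voom (0.24), with the replicate block (0.22) and without control replicate 2. The replicate block gave 0 genes. Same-numbered libraries deviated from their groups with correlations of 0.308, -0.41 and -0.495. With 3 libraries a group, these cannot decide whether the numbers mark anything shared. Without control replicate 2 and exercised replicate 3 together, the differences changed sign for Col3a1 (0.38), Col5a2 (0.16), Fn1 (1.74) and Lum (0.088). The fold between highest and lowest library then was 2.47 for Col3a1, 2.00 for Col5a2, 7.17 for Fn1, 1.30 for Dcn and 1.69 for Lum. Without control replicate 3 and exercised replicate 3 together it was 5.04 for Col3a1, 3.57 for Col5a2 and 1.21 for Dcn. Leaving out 1 library it ran from 7.25 to 26.7 for Col3a1, 4.85 to 12.5 for Col5a2, 7.34 to 26.0 for Fn1, 1.42 to 10.2 for Dcn and 1.74 to 6.31 for Lum. The median correlation of the 10 pairs ran from 0.660 (without control replicate 2) to 0.887 when 1 library was left out, and was 0.786 on deviations from the group means. A limma fit on log2(value + 1), planned only for a table that did not hold counts, was not run.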
